A study of Homo sapiens with 2 samples.

Results

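Ribosome assembly factors are the proteins that fold, cut, modify and export the precursors of the ribosome's subunits. The genes described here are 59 such factors, named as a list of established members and looked up by Entrez identifier in the peak list of DDX18, a nucleolar RNA helicase of the DEAD-box family. By their known roles, 26 act on the large (60S) subunit, 27 on the small (40S) subunit, and 6 are core proteins of the small nucleolar ribonucleoproteins (snoRNPs), which serve both. The 59 members stand among 20056 protein-coding genes of the RefSeq gene table, and all 59 matched it.

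The RNA contacts of DDX18 were mapped by iCLIP, in which ultraviolet light crosslinks RNA to protein before the protein is pulled down and the bound fragments are sequenced. The study had 1 group of 2 samples, both of H9, a widely used line of human embryonic stem cells. The cells carried 3XFlag-DDX18, a form of DDX18 with a triple FLAG tag, and were kept under normal culture conditions on inactivated mouse feeder fibroblasts. The cells were irradiated with 160 mJ/cm2 at 254 nm and precipitated with an antibody against FLAG. Whether the tag was on the endogenous gene or on an added copy, and whether the samples were separate cultures, is not given in the sources used here. No input or untagged sample was used here, and no comparison between conditions was made.

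Both samples share 1 list of significant peaks on the hg19 build, with 1 height per peak and no value per sample. The list held 17163 entries at 16095 positions, with heights from 3 to 76702 and a median of 8. The spread between replicates and the sequencing depth are therefore unknown for every value given here. Heights were not scaled to RNA abundance, which was not measured here. Of 10 marker genes of pluripotent cells, 8 had a peak, POU5F1 and SOX2 having none, and of 10 markers of feeder-type fibroblasts 5 had one. The share over all protein-coding genes was 31%. A listed peak is not a measure of expression.

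Ribosome assembly starts in the nucleolus, on a long precursor RNA that holds the 18S, 5.8S and 28S rRNAs. The 40S factors first form the small-subunit processome around the U3 snoRNA, and the 60S factors join the later part of the precursor in successive complexes that remodelling ATPases strip away. Box C/D snoRNPs guide the methylation of rRNA and box H/ACA snoRNPs guide its pseudouridylation. Many of these snoRNAs are cut from introns of genes that encode ribosomal and nucleolar proteins, so a gene of an assembly factor can give rise to an mRNA and to snoRNAs of its own.

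For this reason peaks in small RNAs were kept apart from the others. A peak was counted as in a small RNA when the nearest annotated start site belonged to a gene named SNORD, SNORA or RNU, or when it lay in a repeat of the snRNA class. Of the 68 peaks called in members, 17 were in small RNAs and 51 were elsewhere, mostly in the mRNA.

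DDX18 peaks were listed for 33 of the 59 members. This was 55.9% of them (exact 95% binomial interval, Clopper-Pearson, 42.4 to 68.8), and 31% of all protein-coding genes had a peak. Outside small RNAs, 27 members had a peak (45.8%, interval 32.7 to 59.2), beside 30.5% of all protein-coding genes. In small RNAs, 7 members had one (11.9%), beside 0.743% of all protein-coding genes. The intervals cover counting error only, since genes are not independent replicates. The background includes genes that these cells may not express, and the part of expression in these shares was not tested.

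The peaks in small RNAs were few and high, and those outside were many and low. The 17 peaks in small RNAs ran from 41 to 894 with a median of 128, and held 88.4% of the members' summed height of 3463. The 51 other peaks ran from 5 to 30 with a median of 7, beside a median of 8 over the 15692 such peaks of all protein-coding genes. Of these 51, 40 had a height of 8 or less and 6 had a height of 10 or more. Small RNA peaks were narrow, with 11 of 17 only 1 base wide. Their median width was 1 base, beside 4 for the small RNA peaks of all protein-coding genes. The median width outside was 16 bases, beside 13 over all protein-coding genes.

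**Figure D1:**
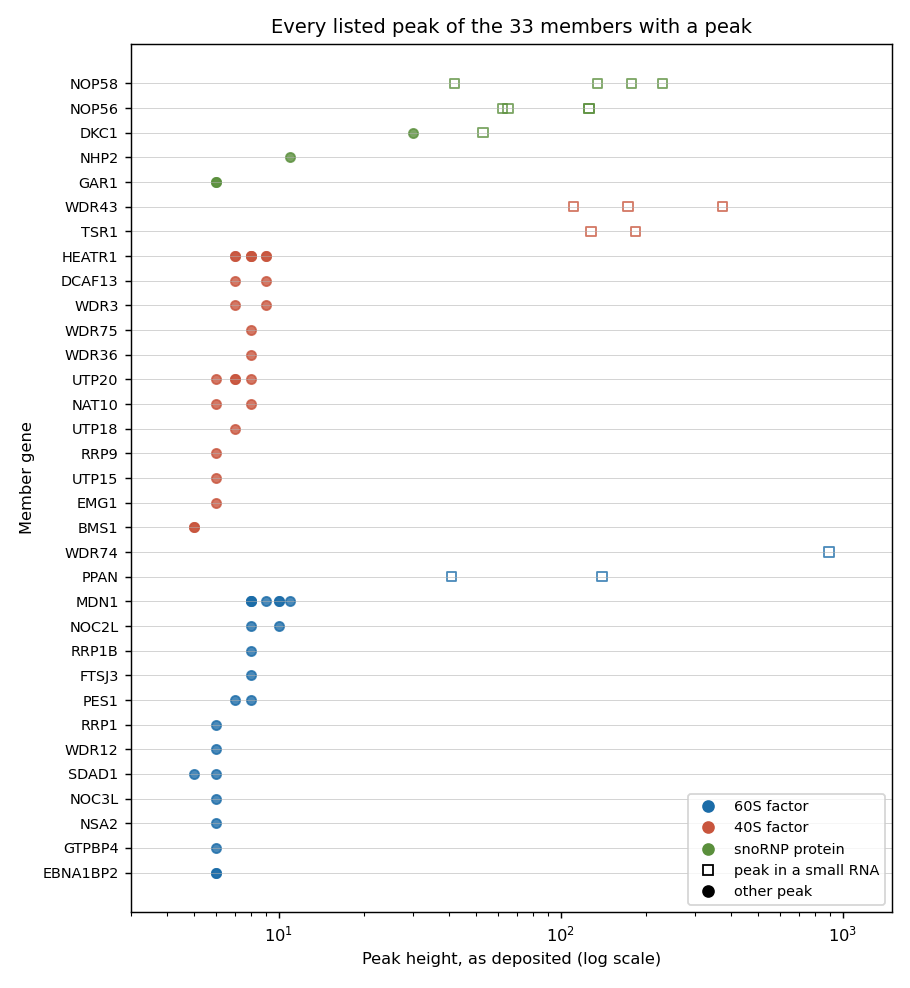
Height of each listed peak (x axis, log scale, as deposited) of the 33 members with a peak (y axis), coloured by subunit; open squares are peaks in small RNAs and filled circles are other peaks, and darker circles overlap. Open squares lie at 41 or above, and all filled circles lie at 11 or below except that of DKC1 at 30.

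Among the 60S factors, WDR74 had the highest peak of any member. WDR74 (Entrez 54663) encodes an adaptor of the ATPase NVL in the maturation of the 60S precursor. Its only peak had a height of 894 against an expected height of 7.15 that the authors give for the gene. It lay at chr11:62609132-62609133 on the minus strand, in a copy of the U2 spliceosomal RNA that the annotation places 1504 bases upstream of the start site and calls intergenic. The RefSeq table lists RNU2-2, a U2 RNA gene, within the span of WDR74. Of the 5 positions in U2 copies in the whole list, this was the highest, followed by 639. No peak was listed in the WDR74 mRNA.

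PPAN (Entrez 56342), a Brix-domain factor of the 60S precursor, was the other 60S factor with peaks in small RNAs. It had a peak of 41 in SNORD105 and one of 140 in SNORD105B, both box C/D snoRNAs. The same positions were also called under PPAN-P2RY11, a readthrough transcript that shares the PPAN sequence, so the reads cannot be assigned to either transcript. Of the 17 small RNA peaks of all members, 11 were also listed under another gene. For members other than PPAN, that gene was the snoRNA itself, and the PPAN peak of 140 was listed under SNORD105B as well.

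Among the 40S factors, WDR43 and TSR1 had small RNA peaks. WDR43 (Entrez 23160), a subunit of the UTP-A complex that loads first on the precursor, had 3 peaks. A peak of 375 lay in SNORD92 at chr2:29136591-29136591, and one of 173 lay in SNORD53. The third, of 111, lay 973 bases past the start of SNORD53, which is 78 bases long, so it was outside that RNA. The RefSeq table also lists SNORD53B within WDR43, but the place of this peak relative to it was not determined. TSR1 (Entrez 55720), a factor of late 40S precursors that blocks early joining with the large subunit, had a peak of 184 in SNORD91B and one of 128 in SNORD91A. By the naming rule, neither WDR43 nor TSR1 had a peak outside small RNAs.

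The remaining small RNA peaks lay in the genes of snoRNP proteins themselves. NOP58 (Entrez 51602), a core protein of C/D box snoRNPs, had 4 peaks, of 230 in SNORD11, 178 in SNORD11B, 135 in SNORD70 and 42 in intron 3 of 14. The last was 1720 bases past the start of SNORD70, which is 88 bases long, so it was outside that RNA. The RefSeq table also lists SNORD70B within NOP58, but the place of this peak relative to it was not determined. NOP56 (Entrez 10528), its partner in the same particles, had 4 peaks. They were 126 in SNORD110, 126 in the H/ACA box RNA SNORA51, 65 in SNORD57 and 62 in SNORD56. DKC1 (Entrez 1736), the pseudouridine synthase of H/ACA box snoRNPs, had a peak of 53 in SNORA56. NOP56 and NOP58 thus had 8 small RNA peaks by the naming rule, of which the NOP58 peak of 42 lay outside the RNA it was named for. None of the 8 carried an exon or UTR label.

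A further peak of DKC1, of height 30, lay at chrX:153996902-153996902. The nearest start site was that of MIR664B, a microRNA hairpin, so the naming rule placed this peak outside small RNAs. The annotated transcript there is the H/ACA box RNA SNORA36A. The peak was 31 bases past the start of the hairpin. The RefSeq hairpin (61 bases, GRCh38.p14, chrX:154768596-154768656, plus strand) is printed 5′ to 3′, because the peak lay inside it. Capitals mark the 5 bases from 30 to 34, centred on the peak if a distance of 0 is the first base.
MIR664B: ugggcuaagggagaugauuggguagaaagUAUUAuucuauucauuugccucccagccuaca
In RefSeq the mature hsa-miR-664b-5p covers bases 1 to 24 of the hairpin and hsa-miR-664b-3p covers bases 40 to 61. The capitals therefore fall between the arms. Without this peak, 26 members had 50 peaks outside small RNAs and the highest of them was 11. No sequence of the other small RNAs was used here.

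Inside the snoRNAs the peaks lay at like places. Of 16 peaks named for snoRNAs, 14 lay inside the named RNA, 12 of them in C/D box and 2 in H/ACA box RNAs. In the C/D box RNAs the peaks stood 41 to 82 bases past the start, at a median of 68.3% of the length (range 46.6 to 76.9). In 11 of 12 the peak was nearer to the 3' end, the exception being SNORD70 in NOP58 at 46.6%. The H/ACA box RNAs SNORA51 and SNORA56 had their peaks at 80.3% and 82.9%. Places were not computed here for the snoRNA peaks of other genes, so no trait particular to the members is read from them. The 16 snoRNA-named peaks had a median height of 127. The 341 such peaks in all protein-coding genes, these 16 included, had a median of 30 (quartiles 12 and 105).

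**Figure D2:**
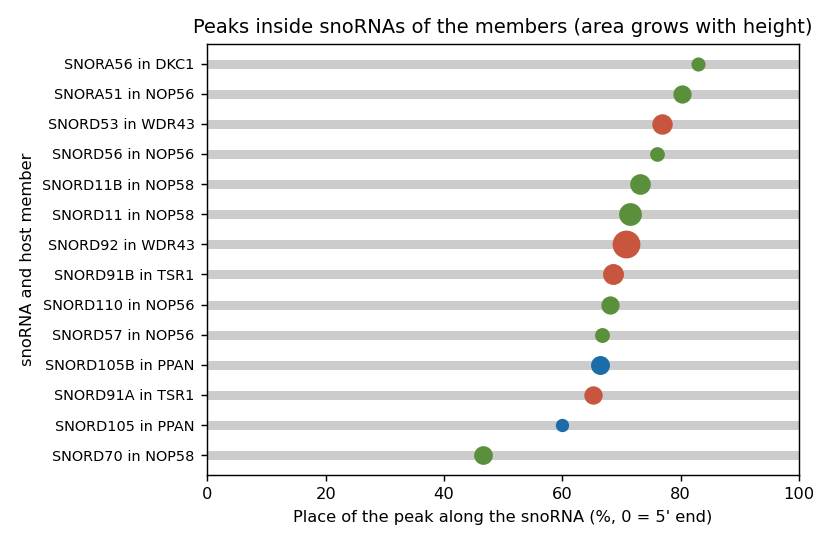
Place of each peak (x axis, percent of the snoRNA's length from its 5' end) in the 14 snoRNAs of members that hold one (y axis, with the host gene); grey bars are the RNAs, point area grows with peak height and colours are as in the plot of heights. The points run from 46.6% for SNORD70 to 82.9% for SNORA56.

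By the naming rule, small RNA peaks and other peaks were seldom listed for the same member. Of the 7 members with a small RNA peak, only DKC1 also had a peak outside small RNAs, and that is the hairpin peak. This count rests on the rule. The NOP58 peak of 42 and the WDR43 peak of 111 were counted as small RNA peaks, though they lay outside the RNA they were named for. Over all protein-coding genes, 52 of 149 with a small RNA peak also had one outside (34.9%). No interval was computed for the 7 members, which are too few to read a difference from that share. The authors give each gene 1 expected height, which was 0.33 to 7.15 in these 7 members and 0.01 to 0.33 in the members with peaks outside. Among all protein-coding genes with an expected height over 0.5, no peak outside small RNAs below 9 was listed, and the median of their lowest such heights was 13 (381 genes). Among genes with an expected height up to 0.1, that median was 6 (4519 genes). The part of the expected height in the missing mRNA peaks was not tested.

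The 60S and 40S factors had a peak about equally often. A peak was listed for 14 of 26 60S factors (53.8%, interval 33.4 to 73.4) and 14 of 27 40S factors (51.9%, 31.9 to 71.3), a difference of 1.99 percentage points. Outside small RNAs the counts were 12 of 26 (46.2%, 26.6 to 66.6) and 12 of 27 (44.4%, 25.5 to 64.7), a difference of 1.71 points. Each interval contains the other group's share. No test was made, since the list has no value per replicate and genes do not stand in for replicates. Of the 6 snoRNP proteins, 5 had a peak and 3 had one outside small RNAs. When the called gene was replaced by that of the nearest start site, 9 of 26 60S factors and 12 of 27 40S factors had a peak. With peaks in exons and UTRs only, they were 9 and 10. The share of all protein-coding genes was not counted under these alternatives.

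**Figure D3:**
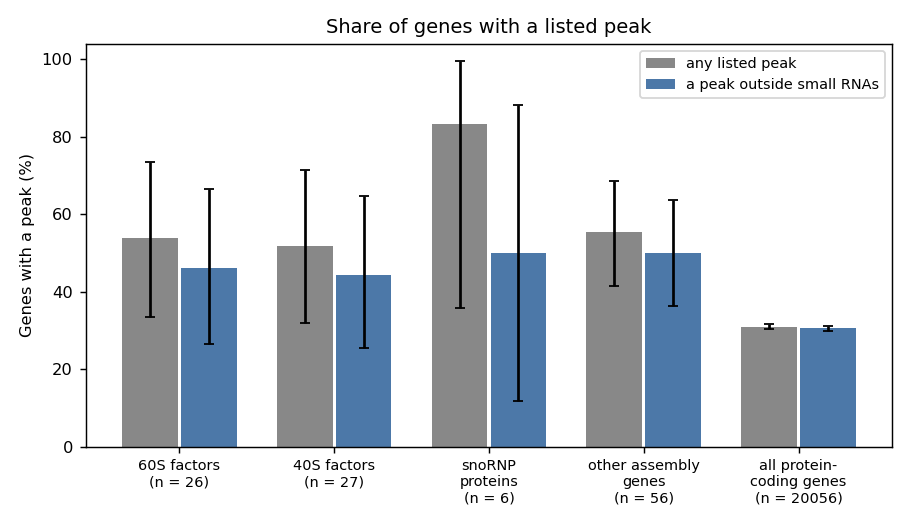
Share of genes (y axis, percent) with any listed peak (grey) and with a peak outside small RNAs (blue) in the 60S factors, 40S factors, snoRNP proteins, other ribosome assembly genes and all protein-coding genes; error bars are exact 95% binomial intervals. The 60S bars stand at 53.8% and 46.2%, the 40S bars at 51.9% and 44.4%, and those of all protein-coding genes at 31% and 30.5%.

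Among the 60S factors outside small RNAs, MDN1 had the most peaks. MDN1 encodes a very large AAA ATPase that pulls assembly factors off the 60S precursor. Its 7 peaks had heights of 8, 10, 8, 8, 9, 10 and 11, in order of position on hg19 from exon 79 to exon 30 of 102, since the gene runs on the minus strand. All 7 lay in coding exons, namely exons 79, 77, 63, 39, 34, 33 and 30, over a stretch of 69.5 kb. The highest, of 11, was at chr6:90453392-90453406, with a deposited p of 8.4e-09.

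The PeBoW complex, in which PES1, BOP1 and WDR12 act together in the maturation of 28S and 5.8S rRNA, had peaks in 2 of 3 members. PES1 had a peak of 7 in coding exon 9 and one of 8 in coding exon 8 of 17. WDR12 had a peak of 6 that carried the start-site label of CARF, a neighbouring gene. BOP1 had none.

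Of the NOC proteins of the 60S precursor, NOC2L had a peak of 8 in its 3' UTR and one of 10 next to it at the end-site label, 101 bases apart by their starts. NOC3L had a peak of 6 in its 3' UTR. FTSJ3, a methyltransferase of pre-rRNA processing, had a peak of 8 in coding exon 19 of 21, with an expected height of 0.21. RRP1B had a peak of 8 at its end-site label, and its relative RRP1 had one of 6 in its 3' UTR.

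Other 60S factors had peaks of 5 or 6. The GTPase gene GTPBP4 had a peak of 6 in its 3' UTR, and NSA2 one of 6 in an intron. EBNA1BP2 had 2 peaks of 6, in its 3' UTR and at a position with the end-site label of MIR6733. SDAD1 had a peak of 6 in an intron and one of 5 in coding exon 1. No peak was listed for 12 of the 26. These were BOP1, the Brix-domain genes BRIX1, RPF1 and RPF2, the 5S particle partner RRS1, MAK16, NIP7, NOP16, NLE1 and NVL. The list of 12 also holds NOP2 and RRP8, which encode methyltransferases of 28S rRNA. RPF2 and RRS1, which bring the 5S particle to the precursor, were thus both without a peak. So were most protein-coding genes, of which 31% had one.

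Among the 40S factors, HEATR1 had the most peaks. HEATR1 is the largest subunit of UTP-A, which also acts in transcription of ribosomal DNA. Its 7 peaks had heights of 9, 7, 7, 9, 8, 8 and 8, in order of position on hg19. The first of these carried the end-site label of LGALS8, a neighbouring gene. The other 6 lay in coding exons 30, 30, 21, 15, 3 and 3 of 45. Exons 30 and 3 held a pair each, and the closest pair of peaks started 64 bases apart. The peaks of 9 had a deposited p of 3.9e-06 and those of 7 a p of 0.0139.

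The counts by complex, here and for PeBoW and the late 40S factors, are of 2 to 5 genes each and stand beside the 31% of all protein-coding genes with a peak and 30.5% with one outside small RNAs. All 4 UTP-A genes of the list had a peak, and by the naming rule 3 had one outside small RNAs, WDR43 being the exception. Beside HEATR1 and WDR43, WDR75 had a peak of 8 in coding exon 15 of 21 and UTP15 one of 6 in an intron. In UTP-B, which joins after UTP-A, 3 of 4 genes had a peak. WDR3 had 2 peaks, of 7 and 9, that started 98 bases apart in coding exon 11 of 27. WDR36 had a peak of 8 in coding exon 14 of 23, and UTP18 had one of 7 in coding exon 7 of 14. UTP6 had none. In the MPP10 complex and U3 particle, MPHOSPH10, IMP3 and IMP4 had none, and RRP9, the U3 snoRNP protein, had a peak of 6 in coding exon 8 of 15.

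UTP20, a scaffold of the processome and one of the longest proteins in this pathway, had 4 peaks. Their heights were 8, 7 and 7 in coding exons 16, 26 and 48 and 6 in the 3' UTR, of 62 exons, over 80.2 kb. NAT10, which acetylates cytidines of 18S rRNA, had peaks of 6 and 8 in coding exons 3 and 7 of 29. DCAF13 had peaks of 9 and 7 in coding exons 2 and 7 of 11, and the GTPase gene BMS1 had 2 of 5 in coding exons 5 and 10 of 23, each with a deposited p of 0.0486. EMG1, a methyltransferase of 18S rRNA, had a peak of 6 with the end-site label of LPCAT3, a neighbouring gene.

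No peak was listed for 13 of the 27 40S factors. Beside UTP6, MPHOSPH10, IMP3 and IMP4, these were UTP3, UTP14A, NOP14, NOC4L, RRP36, KRR1, LTV1, RRP12 and the nuclease gene NOB1, which cuts the 3' end of 18S rRNA. Of the late 40S factors TSR1, LTV1, NOB1 and RRP12, TSR1 alone had a peak, in small RNAs only.

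Of the H/ACA box proteins, NHP2 had a peak of 11 in coding exon 1 of 4, at chr5:177580693-177580697, with a deposited p of 1.75e-08. Its height equalled the highest of MDN1. GAR1 had a peak of 6 in its 5' UTR and one of 6 in an intron. The 5' UTR peak of GAR1 was the only one in the 59 members. NOP10, the shortest of them in this group with a span of 1.42 kb, had none.

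The region labels of the mRNA peaks were set side by side for the 40S and 60S factors, with no test. Outside small RNAs, 21 of 25 peaks of 40S factors were in coding exons (84%, interval 63.9 to 95.5), and 11 of 22 of 60S factors were (50%, 28.2 to 71.8). Over all protein-coding genes the share was 48.1%. Counted by gene, 10 of 12 40S factors with such a peak had one in a coding exon (83.3%), beside 4 of 12 60S factors (33.3%) and 51.5% of all protein-coding genes with such a peak. The 60S factors with one were MDN1, PES1, FTSJ3 and SDAD1. MDN1 alone gave 7 of the 11 peaks, and without it 4 of 15 were in coding exons (26.7%). Without HEATR1 the share of 40S factors was 83.3%. When peaks were given to the nearest start site's gene, the shares were closer, at 69.2% of 13 peaks for 60S factors and 83.3% of 30 for 40S factors. The intervals of 28.2 to 71.8 and 63.9 to 95.5 overlap.

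At the other end, 8 of 22 peaks of 60S factors were in a 3' UTR or had an end-site label (36.4%, 17.2 to 59.3), beside 3 of 25 for 40S factors (12%, 2.55 to 31.2) and 24.5% over all protein-coding genes. By gene these were 6 of 12 60S factors, namely EBNA1BP2, GTPBP4, NOC2L, NOC3L, RRP1 and RRP1B, and 3 of 12 40S factors, namely EMG1, HEATR1 and UTP20. The label belonged to another gene in EMG1, in HEATR1 and for 1 of the peaks of EBNA1BP2. Labels of the called gene itself numbered 7, in 6 genes, for 60S factors and 1, in UTP20, for 40S factors. Peaks of 1 gene are not independent, the subunits were compared after the peaks were known, and no test was made. The coding and UTR lengths of the genes were not used here, so their part in these shares was not tested.

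**Figure D4:**
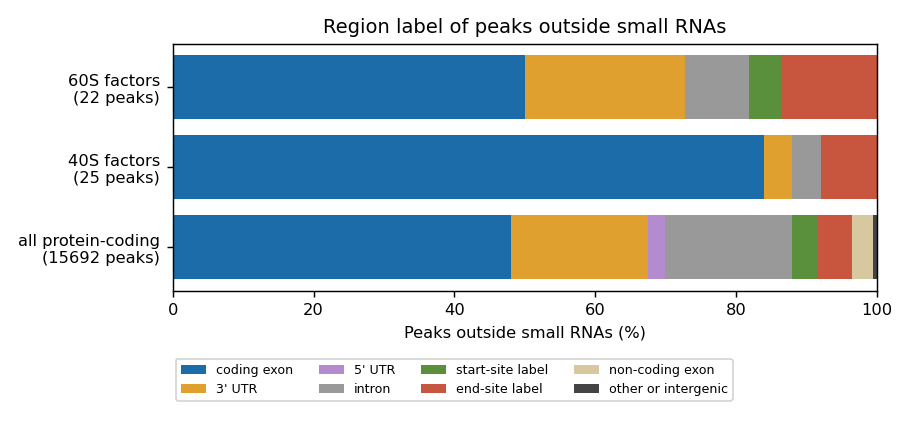
Region labels of peaks outside small RNAs (x axis, percent of peaks) for 60S factors, 40S factors and all protein-coding genes; each colour is a region and each bar sums to all peaks of its group. The coding exon part covers 84% in 40S factors, 50% in 60S factors and 48.1% in all protein-coding genes.

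Of the 51 peaks of members outside small RNAs, 33 were in coding exons (64.7%, 50.1 to 77.6). Introns held 4 (7.84%, 2.18 to 18.9), beside 18% over all protein-coding genes. Of the 33 coding exon peaks, 21 were in exons of the 5' part of the transcript's exon order (63.6%), beside 48.6% of 7528 such peaks overall. Several of the 33 came from the same genes, among them MDN1 and HEATR1. No interval was computed for this share, so no difference is read from it. None of the 33 was in a last exon, which allows a share of up to 10.6% (exact 95% interval), and the share overall was 10.3%, so a difference was not detectable with this number of peaks. Of the 51, 46 were annotated to the called gene and 5 to another gene. These 5 were the peaks of DKC1, EBNA1BP2, EMG1, HEATR1 and WDR12 with a start-site or end-site label named above.

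Members with a peak outside small RNAs were longer genes than those without. Their median span in the RefSeq table was 31.5 kb against 13.3 kb, and over all protein-coding genes it was 51.5 kb against 16.5 kb. MDN1 (177 kb), UTP20 (107 kb) and HEATR1 (55.5 kb) were the 3 members with 3 or more such peaks, which is 5.08% of members beside 8.24% of all protein-coding genes. NVL, with a span of 103 kb, had none. Over the 59 members, span and the number of such peaks had a Spearman rho of 0.41, given as a description, since genes are not independent replicates and all peaks come from the same list.

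The 40S factors were the longer group, with a median span of 25.5 kb against 15.4 kb for 60S factors. Split at the members' median of 19.1 kb, 5 of 16 shorter 60S factors had a peak outside small RNAs (31.2%) and 2 of 9 shorter 40S factors did (22.2%), beside 15% of all shorter protein-coding genes. Among longer genes the counts were 7 of 10 for 60S (70%) and 10 of 18 for 40S (55.6%), beside 42.7% of all longer protein-coding genes. In both length classes the share of 60S factors was the higher of the pair, on counts too small to separate them.

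**Figure D5:**
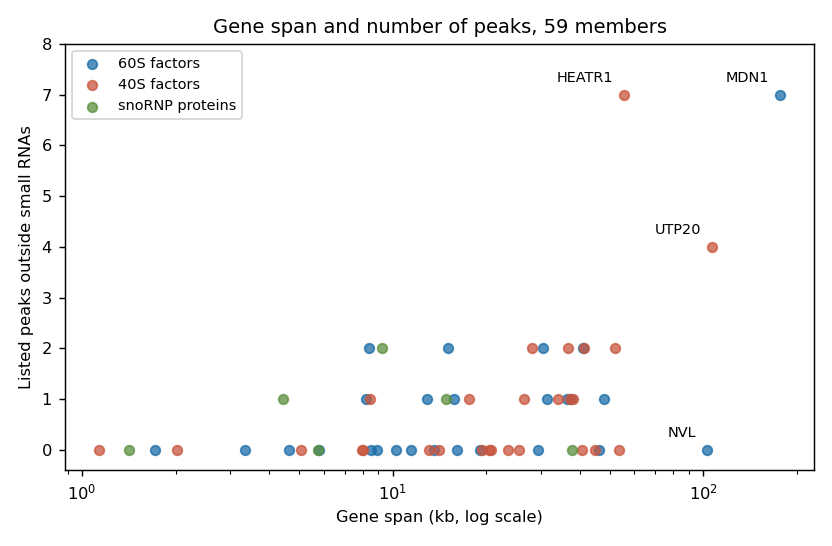
Number of listed peaks outside small RNAs (y axis) against gene span (x axis, kb, log scale) for the 59 members, coloured by subunit. MDN1 and HEATR1 stand at 7 peaks and UTP20 at 4, while NVL has none at a span of 103 kb.

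Other genes of ribosome assembly, none of them members, were listed with a peak at a like rate. Of 56 such genes, 31 had a peak (55.4%, interval 41.5 to 68.7) and 28 had one outside small RNAs (50%, 36.3 to 63.7). Their peaks outside small RNAs ran from 5 to 13, with a median of 8. PDCD11, the human form of the processome scaffold Rrp5, had 9 peaks with a highest of 13, and PELP1, of the complex that acts with MDN1, had 7 with a highest of 12. FBL, the methyltransferase fibrillarin of C/D box snoRNPs, had 2 peaks with a highest of 11. Small RNA peaks were listed for 4 of the 56, with the highest in GNL3 (108) and NOP53 (72).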

How the data were processed

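The authors deposited 1 list for both samples, in which the signal of a peak is its height, a whole number; the header shows annotation on hg19 with annotatePeaks.pl of HOMER. Per the submitters' processing notes, FastQC 0.10.1 and BWA were used; neither names the peak caller or how significance was set. The p-value and expected height in each peak's name are the authors' own, as deposited. Members were found by the Entrez identifier of the called gene, and a position called in several genes counted in each. Called genes had the peak's strand in 13592 of 13615 entries with a known strand. Names, biotypes and spans, and which small RNA genes lie within a member, came from the RefSeq gene table (GRCh38.p14). No peak was placed by its positions, and the 1 hairpin printed has its RefSeq coordinates. Python 3.11.15, pandas 2.3.3 and scipy 1.17.1 were used. Intervals are exact 95% binomial intervals. Members, lists and subunit assignments were chosen with earlier results of these data known, so no test was made. All members are accounted for: those with a small RNA peak, with 3 or more other peaks, or with a strongest other peak at or above the median of 8 are given with all peaks. The counting was tested on simulated data. Alternatives were the gene of the nearest start site, a deposited p of at most 0.01, other small RNA classes, a height of 10 or more, unique positions, exons and UTRs only, and factors with 1 subunit.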

Additional observations from a re-analysis of the deposited data

How the results depend on the processing

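Of 109 values over 16 results and 9 alternatives, 90 stayed near the reported value. Near means within 1.5 times for counts and sums, within the exact interval for shares and medians, and within counting error for differences between shares. Part of the 90 could not move. No peak outside small RNAs shared its position with another gene, and leaving out MDN1 or HEATR1 cannot change the other subunit's values. Counting error is wide here, so a difference between shares that moved to -13.7 points still counted as near. With peaks of height 10 or more, 10 members had a peak and 4 had one outside small RNAs. For 60S factors the counts were then 4 and 2, with 4 peaks outside small RNAs, a summed height of 41 and 75% of them in coding exons. For 40S factors they were 2 and 0, with 0 peaks and a summed height of 0. Over the 4 members that kept a peak outside small RNAs, the median strongest peak was 11. When peaks were given to the nearest start site's gene, 9 60S factors had a peak, with 13 outside small RNAs, and the coding exon share of all members' peaks was 77.8%, with 69.2% for 60S and 83.3% for 40S factors. With exons and UTRs only, 21 members and 9 60S factors had a peak. For the height limit, the nearest start site, and exons and UTRs only, the share of all protein-coding genes was not counted. Without MDN1, left out after the data were seen, the summed height of 60S factors was 102 and their coding exon share 26.7%. The small difference between 60S and 40S shares changed sign with the nearest start site (-9.83 points) and with exons and UTRs only (-2.42 points). Outside small RNAs it changed sign with the nearest start site (-13.7 points) and with all small RNA classes kept apart (-2.14 points). With all small RNA classes kept apart, only the 2 peaks of EBNA1BP2 changed class among 60S and 40S factors. Their nearest start site was that of MIR6733, 7351 and 908 bases away. What changed the sign in the other alternatives was not tested. No paired analysis was possible because the list has no value per replicate, which also leaves no replicate to leave out.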

Other observations

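A further 14 peaks were called in other genes although the nearest start site was that of a member. They are counted above only where peaks were given to the nearest start site's gene. They numbered 5 near NAT10 (highest 17), 3 near EMG1 (highest 20), 2 each near NOP2 (highest 17) and RRP36 (highest 10) and 1 each near NIP7 (8) and RRP8 (6). NOP2, RRP36, NIP7 and RRP8 had no peak called in the member itself.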
